A study of Homo sapiens with 6 samples.

Results

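Genes that build or defend the epidermal barrier were followed in HaCaT keratinocytes, an immortalised line of human skin cells, after contact with M1 protein, which Streptococcus pyogenes carries on its surface as a virulence factor. The set holds 5 genes, LCE1F, RNASE7, KRT17, CLDN1 and LAMB3, each with 1 of the 497 probe sets that the authors' deposited table names, out of 22119 probe sets measured. They were chosen by gene symbol from that table, whose lines the authors had selected because they differed between the 2 groups on these same arrays. All differences between M1 and control given here for these genes are therefore a description, with no test.

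The treated group was 3 samples of HaCaT cells kept for 6 h with 5 µg/ml M1 protein, and the control group was 3 samples left without it. Both groups were grown to 80% confluency in medium with neither serum nor calcium; added calcium is known to drive keratinocyte differentiation and junction assembly. The 6 samples, named as biological replicates, were those hybridised out of 12 once RNA integrity had been looked at, and each was measured on an Affymetrix Human 2.0 ST array. HaCaT is a single line, and whether its replicates came from separate days is not stated, so the errors below are the spread between these samples.

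The epidermis works as a layered barrier. Basal keratinocytes are anchored to the basement membrane by laminin and hemidesmosomes, keratin filaments give the cells their strength, tight junctions seal the spaces between living cells, and a cornified envelope of cross-linked protein closes the dead outer layer. Secreted antimicrobial proteins act on microbes at the surface. Each of the 5 genes stands for a different one of these layers: LCE1F encodes a late cornified envelope protein, RNASE7 a secreted ribonuclease that kills bacteria, KRT17 a keratin of hair follicles that wounded and inflamed epidermis switches on, CLDN1 a claudin of tight junctions, and LAMB3 the beta chain of the laminin of the epidermal basement membrane.

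All 5 genes were higher in the M1 samples, and they fell into a pair with large differences and a trio with small ones. LCE1F was 7.25-fold higher and RNASE7 was 4.87-fold higher than in control samples. KRT17 was 2.15-fold higher, CLDN1 was 1.85-fold higher and LAMB3 was 1.68-fold higher. In each of the 5 genes the lowest M1 sample lay above the highest control sample, as it did in 18.6% of all probe sets. All 5 were also called by limma at an adjusted p under 0.05, as were 32.8% of the 22119 probe sets. Probe sets called higher with M1 made up 11.6% and those called lower 21.2%, and the authors' table listed 1.37% as higher. Since the authors' selection used this contrast, these counts say nothing further about the 5 genes. In bulk RNA, a change in how many cells carry a transcript and in how much each cell carries cannot be told apart.

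Start-site sequences were available for 4 of the 5 genes, LCE1F, RNASE7, CLDN1 and LAMB3, in RefSeq tables of build GRCh38.p14. The 250 bases before the start are shown because these genes were higher together and their windows differ in the letters they hold for AP-1 and NF-kappaB, transcription factors that act in stressed and infected cells. Capitals mark matches, on either strand, to the AP-1 letters TGANTCA or to the NF-kappaB consensus. The windows lie at chr1:152774890-152775139 on the plus strand for LCE1F, chr14:21042112-21042361 on the plus strand for RNASE7 and chr3:190322447-190322696 on the minus strand for CLDN1. LAMB3 has 3 annotated starts, all on the minus strand, of which the first is shown with the window chr1:209652426-209652675 and the third with the window chr1:209651375-209651624.
LCE1F: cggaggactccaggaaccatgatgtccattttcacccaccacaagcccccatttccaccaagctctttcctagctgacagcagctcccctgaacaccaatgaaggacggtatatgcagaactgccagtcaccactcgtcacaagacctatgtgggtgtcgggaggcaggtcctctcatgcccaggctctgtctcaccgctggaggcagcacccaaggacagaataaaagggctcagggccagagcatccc
RNASE7: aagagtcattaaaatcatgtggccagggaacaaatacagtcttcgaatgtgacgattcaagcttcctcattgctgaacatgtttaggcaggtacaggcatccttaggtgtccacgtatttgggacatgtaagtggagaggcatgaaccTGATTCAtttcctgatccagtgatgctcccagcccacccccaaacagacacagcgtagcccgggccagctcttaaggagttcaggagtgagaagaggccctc
CLDN1: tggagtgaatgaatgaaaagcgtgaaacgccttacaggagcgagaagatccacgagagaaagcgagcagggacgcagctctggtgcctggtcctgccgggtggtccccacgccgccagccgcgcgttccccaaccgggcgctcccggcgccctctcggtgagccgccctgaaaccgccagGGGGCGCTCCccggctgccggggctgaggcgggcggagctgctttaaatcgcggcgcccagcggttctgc
LAMB3 start 1: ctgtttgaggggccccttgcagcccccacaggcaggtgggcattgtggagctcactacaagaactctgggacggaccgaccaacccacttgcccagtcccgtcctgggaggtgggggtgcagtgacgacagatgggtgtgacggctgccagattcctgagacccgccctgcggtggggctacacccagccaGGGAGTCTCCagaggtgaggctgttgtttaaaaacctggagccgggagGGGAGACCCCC
LAMB3 start 3: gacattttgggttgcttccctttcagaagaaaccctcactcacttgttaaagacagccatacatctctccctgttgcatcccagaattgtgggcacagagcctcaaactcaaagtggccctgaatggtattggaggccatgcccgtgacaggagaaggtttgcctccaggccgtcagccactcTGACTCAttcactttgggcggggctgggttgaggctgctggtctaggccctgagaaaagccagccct

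The RNASE7 window held 1 match to the AP-1 letters, TGATTCA, from 102 to 96 bases before the start, and 0 to NF-kappaB. The window of the third LAMB3 start also held 1 AP-1 match, TGACTCA, from 67 to 61 bases before the start. The first LAMB3 start had no AP-1 match and 3 matches to the NF-kappaB consensus, GGGAGTCTCC from 59 to 50 bases before the start and the overlapping GGGAGACCCC and GGAGACCCCC, which together span 11 to 1 bases before it. The window of the second LAMB3 start overlaps the first, and at chr1:209652330-209652579 it held the same 3 NF-kappaB matches. CLDN1 had 1 NF-kappaB match, GGGGCGCTCC, from 70 to 61 bases before the start. The LCE1F window, in front of the gene with the largest difference, had 0 matches to either motif. No window of these genes held the cAMP response letters TGACGTCA or the TATA box letters TATAAA. Of all 35116 windows of the same length in the RefSeq table, 6.57% held the AP-1 letters, 9.96% the NF-kappaB consensus, 1.65% the cAMP response letters and 10.7% the TATA box letters. The GC content of the windows ran from 49.6% for RNASE7 to 68.8% for CLDN1, against a median of 58.0% over all windows. A letter match is a description of the sequence and no evidence that a factor binds there, and a window without one says nothing about the factor.

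**Figure D1:**
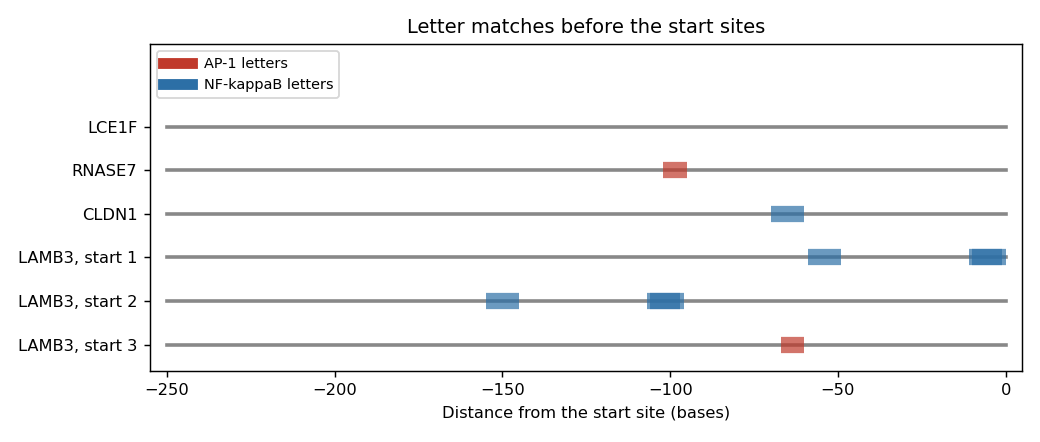
Each grey line is the 250 bases before an annotated start site, with the distance from the start in bases on the horizontal axis and 1 row per start, and bars mark letter matches to AP-1 (red) or NF-kappaB (blue). RNASE7 and the third LAMB3 start have 1 AP-1 match each, CLDN1 and the first 2 LAMB3 starts have NF-kappaB matches, and LCE1F has 0 matches.

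Of the outermost layer, LCE1F had log2 signals of 11.41, 11.55 and 11.51 in the M1 samples, against 8.85, 8.47 and 8.57 in the control samples. The M1 values lay close together and the control values spread more, with the first control sample the highest of them, and the lowest M1 sample still stood 2.56 above it on the log2 scale. The mean was 11.49 ± 0.08 with M1 and 8.63 ± 0.20 in control (SD, n = 3 each), a difference of 2.86 ± 0.10 (limma SE). This was the largest difference of the 5 genes, and 19 of the 22119 probe sets had a larger rise. The pooled SD of LCE1F, 0.148, was larger than that of 73.4% of all probe sets. On the unlogged scale the M1 mean was 2875 and the control mean 398, and the signal lay between the 97.6th and 98.0th percentile of the M1 arrays, against the 72.4th to 77.6th percentile of the control arrays. Proteins of this family are cross-linked under the membrane of dying keratinocytes by transglutaminases, late in differentiation. The authors' table places the probe set on chromosome 1, plus strand, at 152748848 to 152749445, in cytoband 1q21.3, the band of the epidermal differentiation complex. Which build the authors' coordinates refer to is not stated in the table.

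LCE1F was the only late cornified envelope gene the authors' table named. Of 18 genes of that family on a list, 1 was in the table, and of 26 other genes of the cornified envelope and terminal differentiation, such as involucrin, loricrin, filaggrin and the small proline-rich proteins, 0 were. In RefSeq the family has 19 members, among them 6 of the LCE1 type, and LCE1F lies between KPRP and LCE1E, neither of which the table names. A gene missing from the table may still have differed, since 22119 probe sets were measured and names came with 497. At that share few genes of any short list would be named, and LCE1F itself was chosen from the table. This count and those of the lists below therefore say nothing about how related genes behaved. LCE1 genes are close in sequence, and although the annotation of the table sets its cross-hybridisation flag for 0 of 497 probe sets, whether related transcripts add to the LCE1F signal was not tested. Keratinization was an annotation term of LCE1F alone in the table.

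Of the antimicrobial layer, RNASE7 had log2 signals of 10.02, 9.68 and 10.02 in the M1 samples, against 7.31, 7.81 and 7.75 in the control samples. The second M1 sample was the low one of its group and the first control sample the low one of the other, and the groups stayed 1.87 apart. The mean was 9.91 ± 0.20 with M1 and 7.62 ± 0.27 in control (SD, n = 3 each), a difference of 2.28 ± 0.15 (limma SE), and 46 probe sets had a larger rise. RNASE7 was the least even of the 5 genes between replicates. Its pooled SD of 0.238 was larger than that of 93.3% of all probe sets, so the size of its difference is the least certain of the 5. The authors' table places it on chromosome 14, plus strand, at 21510385 to 21512393, in cytoband 14q11.2.

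RNASE7, too, was the only gene of its list in the authors' table, which names 497 of 22119 probe sets and from which it was chosen. Of 20 antimicrobial protein genes on a list that includes the beta-defensins, cathelicidin, psoriasin, calprotectin and the elastase inhibitors PI3 and SLPI, the table named RNASE7 and 0 others. Its RefSeq neighbours RNASE13 and RNASE8 were not named in the table, and it was the 1 gene there of 12 with an RNASE symbol and number. RNASE8 is close to RNASE7 in sequence, and a shared signal was not tested. By the annotation in the table, in which 303 of 497 probe sets were higher, 6 genes belonged to the defence response to bacteria, 4 higher and 2 lower with M1. RNASE7 had the second largest difference there, behind the chemokine CCL20 (4.33 ± 0.15, limma SE) and ahead of the lipopolysaccharide receptor TLR4 (1.44 ± 0.13) and the NF-kappaB family regulator BCL3 (0.78 ± 0.06). The RNA-sensing receptor TLR3 fell by 0.75 ± 0.07 and MAVS, the adaptor of cytosolic RNA sensors, fell by 0.74 ± 0.07 (log2 difference, limma SE), so the members of this term did not share a direction. For the innate immune response, 7 of 9 genes in the table were higher, and 1 of them, IL1RL1 (2.91 ± 0.11), had a larger difference than RNASE7.

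**Figure D2:**
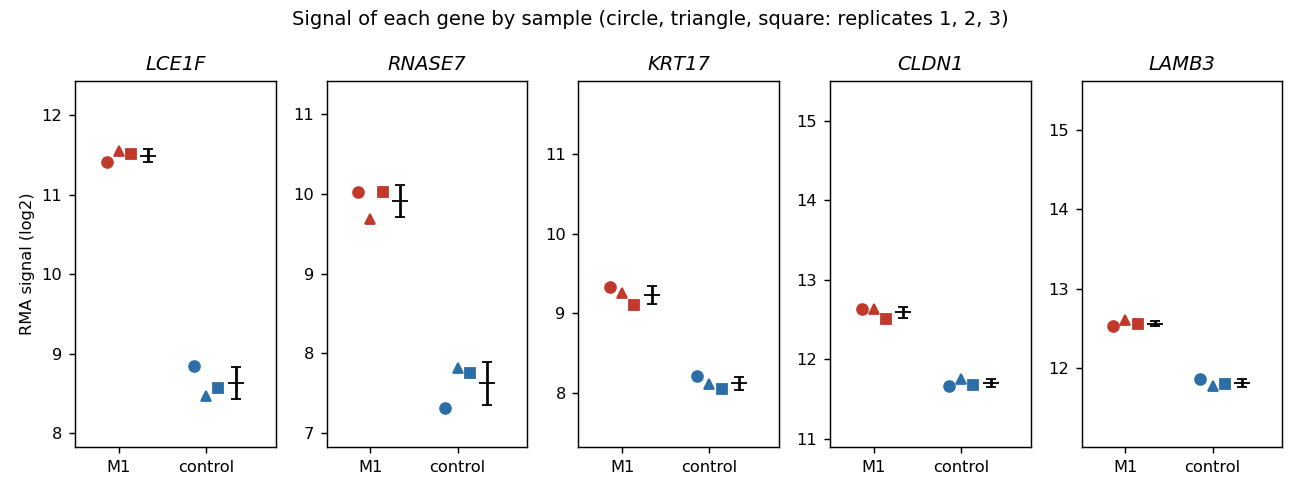
Log2 RMA signals of the 5 genes in each sample, M1 in red to the left and control in blue to the right, with replicates 1, 2 and 3 as circle, triangle and square and the mean and SD in black (n = 3 each). Each panel has its own level but the same span of the vertical axis, so distances can be compared and levels cannot. In every panel the 3 M1 samples lie above the 3 control samples, by 2.56 at the closest points for LCE1F and by 0.67 for LAMB3.

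Of the cytoskeleton, KRT17 had log2 signals of 9.33, 9.25 and 9.10 in the M1 samples, against 8.21, 8.11 and 8.05 in the control samples. The lowest M1 sample stood 0.90 above the highest control sample. The mean was 9.23 ± 0.11 with M1 and 8.12 ± 0.08 in control (SD, n = 3 each), a difference of 1.10 ± 0.08 (limma SE). The pooled SD of 0.0976 was near the middle of all probe sets, larger than that of 47.3% of them, and 275 probe sets, or 1.24%, had a larger rise. The authors' table places KRT17 on chromosome 17, minus strand, at 39775689 to 39781094, in cytoband 17q21.2, and in RefSeq it lies next to KRT16 and, beyond it, KRT14. KRT17 was the 1 gene that the table named of 17 epidermal and stress keratins. Its usual partners in activated epidermis, KRT6A, KRT6B and KRT16, and the basal keratins KRT5 and KRT14 were not named, which leaves their levels unread. RefSeq holds 9 symbols for KRT17 and its numbered copies, of which 1 is protein-coding, and whether the pseudogenes or KRT14 and KRT16 add to the signal was not tested.

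Of the seals between cells, CLDN1 had log2 signals of 12.64, 12.63 and 12.51 in the M1 samples, against 11.67, 11.76 and 11.68 in the control samples. The third M1 sample was slightly below the other two, and the groups stood 0.75 apart. The mean was 12.59 ± 0.07 with M1 and 11.70 ± 0.05 in control (SD, n = 3 each), a difference of 0.89 ± 0.06 (limma SE). In mice, loss of this claudin lets water escape through the skin. The probe set was bright in both groups, between the 99.6th and 99.7th percentile of the M1 arrays and between the 98.5th and 98.7th percentile of the control arrays. Differences of very bright probe sets may be compressed on arrays, which was not tested here. The authors' table places CLDN1 on chromosome 3, minus strand, at 190023490 to 190040264, in the band 3q28-q29.

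Of 19 tight junction genes on a list with other claudins, occludin and the TJP scaffolds, the table named CLDN1 alone, and of 20 genes of desmosomes and adherens junctions it named 0. With 497 of 22119 probe sets named, such counts are low for any short list. By the annotation in the table, where 303 of all 497 probe sets were higher with M1, the tight junction term held 3 genes, all higher: CLDN1, the cell polarity gene PARD6B (1.70 ± 0.06, log2 difference and limma SE) and the signalling adaptor gene TRAF4 (1.27 ± 0.06). Of 7 genes with the cell junction term, 6 were higher, and the small GTPase gene RHOU fell by 0.97 ± 0.08 (log2 difference, limma SE). In that term, 4 genes had a larger rise than CLDN1. Broader terms of CLDN1 were less one-sided. The term integral to membrane held 33 higher and 41 lower probe sets, with a median of -0.74. That of interspecies interaction held 4 higher and 2 lower.

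Of the anchorage to the basement membrane, LAMB3 had log2 signals of 12.53, 12.60 and 12.55 in the M1 samples, against 11.86, 11.77 and 11.80 in the control samples. These were the most even values of the 5 genes: the pooled SD of 0.0418 was larger than that of only 8.67% of all probe sets, and the groups stood 0.67 apart. The mean was 12.56 ± 0.03 with M1 and 11.81 ± 0.05 in control (SD, n = 3 each), a difference of 0.75 ± 0.06 (limma SE). Of all probe sets, 2.46% had a larger rise. Like CLDN1, LAMB3 was bright, between the 98.7th and 98.9th percentile of the control arrays. The authors' table places it on chromosome 1, minus strand, at 209788215 to 209825820, in band 1q32.

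The product of LAMB3 assembles with other chains into a secreted laminin, and its inherited loss causes blistering of the skin. LAMB3 was the table's 1 gene of 21 on a list of basement membrane and hemidesmosome genes, which also holds the collagens COL17A1 and COL7A1 and the integrins ITGA6 and ITGB4. As the table names 497 of 22119 probe sets, this count is no result about the class. Of genes annotated to the basement membrane, 3 were in the table and higher, with LAMB3 below the metalloprotease ADAMTS1 (3.46 ± 0.12) and the vascular growth factor VEGFA (1.88 ± 0.06). LAMB3 and KRT17 shared the epidermis development term with the matricellular gene CCN2 (3.29 ± 0.12) and UGCG (1.33 ± 0.09), which makes the glucosylceramide precursor of barrier lipids, and all 4 were higher. LAMB3 and CLDN1 shared the cell adhesion term, where 9 of 10 genes were higher, with a median log2 difference of 0.90. The kinase gene ABL2 (2.22 ± 0.06) and CCN2 led it, and the angiogenic factor gene AGGF1 fell by 1.26 ± 0.07. For the whole table, 303 of 497 probe sets were higher and 194 lower, with a median of 0.86, and the terms were chosen after the values were seen.

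The 5 genes differed among themselves more in the size of the difference than in its direction. Measured from the control mean, the 3 M1 samples stood 2.78 to 2.92 higher for LCE1F, 2.06 to 2.40 for RNASE7, 0.98 to 1.20 for KRT17, 0.80 to 0.93 for CLDN1 and 0.72 to 0.79 for LAMB3 on the log2 scale, with no overlap between the genes. When the spread of the control samples was counted too, the gap between LCE1F and RNASE7 was 0.57 ± 0.31 (SE), with a 95% interval from -0.28 to 1.43. The gap between RNASE7 and KRT17 was 1.18 ± 0.24 (95% interval 0.51 to 1.85) and that between KRT17 and CLDN1 was 0.22 ± 0.07 (0.03 to 0.40). Quantile normalization set KRT17 (1.21) and CLDN1 (0.77) further apart than the deposited signals did (1.10 and 0.89). The intervals do not cover the choice of normalization. The gap between CLDN1 and LAMB3 was 0.13 ± 0.07 (-0.06 to 0.32). The genes came from a table selected on this contrast and were paired by the rank of their differences. These intervals therefore describe the spread between samples and carry no test.

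**Figure D3:**
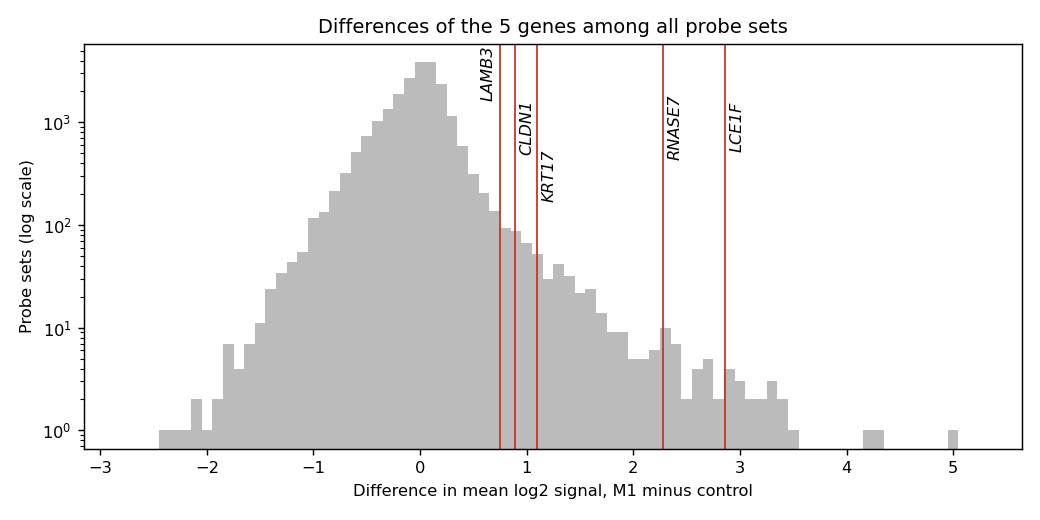
Histogram of the difference in mean log2 signal, M1 minus control, over all 22119 probe sets in bins of 0.1 with a log scale for their number, and the 5 genes as red lines. LCE1F at 2.86 and RNASE7 at 2.28 lie in the thin upper tail, and KRT17 at 1.10, CLDN1 at 0.89 and LAMB3 at 0.75 lie on its shoulder.

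Around their group means the genes did not all move together. LCE1F lay 0.22 above its control mean in the first control sample, where RNASE7 lay below its own by 0.313. The second M1 sample was the highest of its group for LCE1F and the lowest for RNASE7. Over the 6 samples, RNASE7 was on the other side of its group mean from LCE1F in 5 and from KRT17 in 5. It was opposite to LAMB3 in 6 and to CLDN1 in 3. LAMB3 was on the same side as KRT17 in 5 and as LCE1F in 5. The deviations of LAMB3 were at most 0.053 in size, and the 3 deviations of a group sum to 0, so these counts describe the samples and carry no test. No sample was high or low for all 5 genes.

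**Figure D4:**
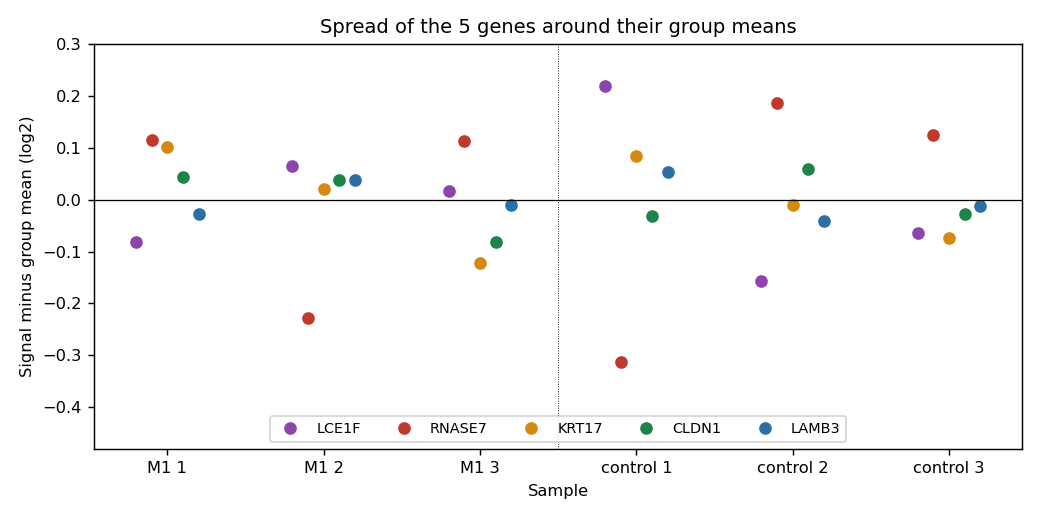
Deviation of each gene's log2 signal from its group mean in the 6 samples, M1 to the left of the dotted line and control to the right. RNASE7 has the widest deviations, from -0.313 to 0.187, LAMB3 stays between -0.041 and 0.053, and no sample is on one side of 0 for all 5 genes.

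Profiles most like each gene were sought among the genes of the authors' table with a single symbol, by the root mean square difference of the 6 log2 signals, each taken from its gene's control mean. Nearest to LCE1F were the AP-1 subunit gene FOSB at 0.105 and the MAP kinase phosphatase gene DUSP1 at 0.143. RNASE7 was nearest to INHBA, which encodes an activin subunit, at 0.130, and to the histone demethylase gene KDM7A at 0.147. The nearest to KRT17 were the syntaxin gene STX11 at 0.046 and the kinase gene SGK1 at 0.058, and those to CLDN1 the transcription factor gene TFAP2C at 0.034 and the phosphatase subunit gene PPP1R15B at 0.046. LAMB3 was nearest to the galactosyltransferase gene B4GALT1 and the coactivator gene CITED4, both at 0.016. None of the 5 genes was among another's nearest: the closest pair, CLDN1 and LAMB3, lay 0.117 apart, and 85 named genes were nearer to CLDN1 than LAMB3 was. LCE1F and RNASE7 lay 0.510 apart, with 42 named genes nearer to LCE1F. With few arrays and 2 groups, the measure mostly sorts genes by the size of their difference.

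No other probe set of the authors' table lay within 1000000 bases of any of the 5 genes, by the table's own coordinates, which was also so for 298 of the 497 probe sets (60.0%) and is therefore common in this selection. Of the 4 nearest protein-coding neighbours of each gene in RefSeq order, 2 to either side, 0 were named in the table. As the table names 497 of 22119 probe sets, few of any such neighbours would be named.

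The authors' deposited table gives each gene a SAM score, a fold change, a q-value, which was 0 in every line, and a per-gene p-value. Its header names an alpha for the p-value but no limit for the score or the fold change. The SAM score in the authors' deposited table was 3.63 for LCE1F, 2.65 for RNASE7, 1.48 for KRT17, 1.23 for CLDN1 and 1.07 for LAMB3, against a lowest positive score in that table of 1.03. LAMB3 was near that lowest score, ranking 287th of 303 positive scores. The fold change in the authors' deposited table, from means of unlogged signals, ran from 1.68 for LAMB3 to 7.22 for LCE1F. The p-values in the authors' deposited table ran from 5.54e-05 for LAMB3 to 0.000498 for RNASE7, and that of LCE1F was 0.000438. Beyond the table, 251 probe sets that it does not name had a larger rise than LAMB3.

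The 6 arrays were alike in scale, with medians of 6.93 to 6.96 with M1 and 6.99 to 7.01 in control, and Pearson's r across probe sets was 0.994 to 0.995 within M1, 0.996 to 0.997 within control and 0.977 to 0.981 between the groups. Of 8 keratinocyte markers the authors' table named 1, KRT17, which is itself a gene of the set. A place in the table reflects a difference between the groups, so the label of the line was not checked. The table named 0 of 6 fibroblast, 0 of 6 leukocyte, 0 of 5 endothelial and 0 of 5 melanocyte markers, which leaves their levels unread here.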

How the data were processed

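RNA of 3 M1 and 3 control samples was measured on Affymetrix arrays, with groups and replicate numbers from the sample titles. The authors deposited 1 log2 signal per probe set and array. Per the submitters' processing notes, the tools were RMA and Affymetrix Expression Console 1.1.2. Per the file headers, the authors' table adds a SAM score, a fold change of unlogged means and a t-test p-value. Its log2 signals equalled the value table, and 0 columns belonged to another series. The number of arrays limits the precision. Some genes are not reported here.

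All 22119 probe sets were fitted without a filter in R 4.3.3 with limma 3.58.1 (lmFit, eBayes; two-sided, Benjamini-Hochberg, adjusted p under 0.05), for background shares and standard errors only. The fit was tested on simulated data. Gene names came from the table, updated by unversioned accession (476 of 497 matched RefSeq, 46 with a newer symbol). The named genes are the 5 genes, the members of written-out gene lists in the authors' table, the 2 nearest profiles of each gene and, chosen after values were seen, genes sharing an annotation term. The genes, lists and motifs were chosen with earlier results of these data known. NF-kappaB was searched as its 10-base consensus. Intervals of gaps between genes used per-array differences. Alternatives were 2 rescalings, the replicate block, other summaries, and each sample left out.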

Additional observations from a re-analysis of the deposited data

How the results depend on the processing

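All 5 genes were higher with M1 under each alternative run on them, a direction that groups which do not overlap largely fix. Of 55 values under alternatives, 50 moved by less than the spread between replicates. Most of this count was fixed in advance: the replicate block leaves the differences unchanged, and leaving out 1 of 3 samples moves a group mean by only part of that spread. The 5 that moved all came from the rescalings or the group medians. Quantile normalization gave log2 differences of 1.21 for KRT17, 0.77 for CLDN1 and 0.65 for LAMB3, and the cause of these shifts was not tested. Median centring, which moves every difference by the same amount, gave 0.81 for LAMB3. Group medians, which use the middle sample of each group, gave 0.95 for CLDN1. Leaving out each sample in turn gave 2.78 to 2.97 for LCE1F, 2.13 to 2.40 for RNASE7, 1.05 to 1.16 for KRT17, 0.86 to 0.93 for CLDN1, 0.73 to 0.78 for LAMB3, and 5386 to 6763 called probe sets against 7245 with all samples.

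With the replicate block the differences of the 5 genes were as before (2.86, 2.28, 1.10, 0.89 and 0.75, by construction) and 5821 probe sets were called, the 5 genes among them. Deviations of same-numbered samples correlated at -0.123, -0.118 and -0.00108, which gives no sign that the numbers pair the samples. A 1.5-fold limit left 2088 probe sets (790 higher, 1298 lower), fewer by construction. Median centring moved the calls from 2555 higher and 4690 lower to 3578 higher and 3670 lower. The spread of RNASE7 limits how well the size of its difference is known. Whether the differences of bright probe sets such as CLDN1 and LAMB3 were compressed was not tested.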
